A study of Rattus norvegicus with 13 samples.

Results

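The nuclear-encoded genes of mitochondrial oxidative phosphorylation were followed across 13 rat liver microarrays. Members were the probe sets whose annotation gave a single gene symbol beginning with Nduf, Uqcr, Atp5, Cox4, Cox5, Cox6, Cox7 or Cox8, or the symbol of a succinate dehydrogenase subunit or of Cyc1. The rule found 101 probe sets of 55 genes among 8740 probe sets that were not array controls, and no measured value entered it. Complex I held 49 of them (27 genes), complex II 1 (Sdha), complex III 7 (4 genes), complex IV 27 (13 genes) and complex V 17 (10 genes). The rule also takes in Ndufaf3, an assembly factor, Atp5if1, the inhibitor of the ATP synthase, Cox6c-ps1, a pseudogene, and the paralogues Ndufa4l2 and Cox7a2l. Ndufa4 is counted here with complex I by its name, although its protein is now assigned to complex IV.

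The study asked how ethanol changes hepatic gene expression during gestation, in time-impregnated Sprague Dawley females given diets at either of 2 energy intakes. TEN-220 (3 arrays) received an ethanol-free diet at 220 kcal per kg3/4 of body weight per day, and EtOH-220 (3 arrays) took ethanol at 12 g per kg daily with that same intake. TEN-160 (3 arrays) was an undernourished control on the ethanol-free diet at 160 kcal, and EtOH-160 (4 arrays) took the same ethanol dose at 160 kcal. The labels do not give the animals' ages, the day of gestation, the route of feeding or whether an array held 1 liver or a pool, so the p-values below measure the spread between these arrays only.

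Oxidative phosphorylation couples the oxidation of NADH and succinate to ATP synthesis across the inner mitochondrial membrane. Complexes I (NADH dehydrogenase) and II (succinate dehydrogenase) pass electrons to ubiquinone, complex III (the cytochrome bc complex) passes them on to cytochrome c, complex IV (cytochrome c oxidase) reduces oxygen, and complex V (the ATP synthase) uses the resulting proton gradient. In hepatocytes the chain supplies ATP for gluconeogenesis and urea synthesis and reoxidises NADH, including the NADH made when alcohol and aldehyde dehydrogenases oxidise ethanol. The core catalytic subunits of several complexes are encoded by mitochondrial DNA, and none of the 26 symbols searched for them was on this array.

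The start-site regions of 4 genes are shown because Cox8a and Cox4i1 had lower signal, and Uqcrc2 and Ndufb11 higher signal, in TEN-160 than in TEN-220. Each is the RefSeq sequence on build GRCr8 from 250 bases before to 50 bases after the gene's start, read 5′ to 3′ on the strand of the gene. Cox8a lies at chr1:213833574-213833873 on the minus strand, and the others lie on the plus strand at chr19:65630133-65630432 (Cox4i1), chr1:184598990-184599289 (Uqcrc2) and chrX:4126067-4126366 (Ndufb11). Capitals mark matches on either strand to 3 short motifs, the ETS core CCGGAAG, which GABP can bind, the YY1 core AANATGG and the NRF1 core GCGCNTGCG, and no match overlaps another in these 4 sequences.
Cox8a: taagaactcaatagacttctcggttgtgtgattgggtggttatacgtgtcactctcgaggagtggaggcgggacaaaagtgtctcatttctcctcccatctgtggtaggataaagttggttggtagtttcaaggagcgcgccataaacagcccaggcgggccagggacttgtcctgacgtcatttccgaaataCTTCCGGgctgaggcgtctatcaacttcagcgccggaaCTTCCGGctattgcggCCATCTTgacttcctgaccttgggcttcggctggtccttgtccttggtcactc
Cox4i1: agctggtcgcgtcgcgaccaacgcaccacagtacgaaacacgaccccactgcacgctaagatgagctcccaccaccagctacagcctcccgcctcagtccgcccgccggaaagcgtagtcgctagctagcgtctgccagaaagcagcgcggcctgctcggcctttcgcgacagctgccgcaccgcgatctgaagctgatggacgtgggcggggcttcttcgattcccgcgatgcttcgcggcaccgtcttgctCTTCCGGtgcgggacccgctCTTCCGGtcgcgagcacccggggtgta
Uqcrc2: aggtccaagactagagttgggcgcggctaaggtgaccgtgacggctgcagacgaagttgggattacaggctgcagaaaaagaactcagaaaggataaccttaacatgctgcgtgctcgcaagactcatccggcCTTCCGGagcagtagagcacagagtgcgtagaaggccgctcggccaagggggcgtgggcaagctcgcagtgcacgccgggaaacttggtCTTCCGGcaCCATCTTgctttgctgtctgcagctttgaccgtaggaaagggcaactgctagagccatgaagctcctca
Ndufb11: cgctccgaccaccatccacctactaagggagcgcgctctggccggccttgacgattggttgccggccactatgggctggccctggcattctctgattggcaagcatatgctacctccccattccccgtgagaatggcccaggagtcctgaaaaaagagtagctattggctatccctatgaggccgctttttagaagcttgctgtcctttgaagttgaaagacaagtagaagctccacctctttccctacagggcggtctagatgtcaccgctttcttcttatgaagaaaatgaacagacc

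NRF1, GABP and YY1 are textbook regulators of nuclear genes for the respiratory chain. Of the 55 genes, 46 had a start-site sequence in the RefSeq table. The ETS core occurred in 19.6% of these 46 against 8.75% of all 33469 sequences of the same length and 10.7% of those of protein-coding genes. The NRF1 core occurred in 17.4% against 5.75% and 7.54%, and the YY1 core in 52.2% against 18.3% and 17.8%. The YY1 core holds ATG, and some matches lie past the gene's start, as in Ndufa3 (base 17) and Ndufb8 (base 22). Matches that may be start codons were not set apart. Of the 4 sequences shown, those of Cox8a and Uqcrc2 each hold 2 ETS cores and 1 YY1 core, that of Cox4i1 holds 2 ETS cores, and that of Ndufb11 holds none of the 3. Whether these cores bear on the changes in signal was not tested.

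Values are signal intensities of the arrays, brought to a common distribution by quantile normalization, and are printed on the linear scale, with differences on the log2 scale. Probe sets were tested in 6 comparisons with limma on all 4 groups, and a probe set was called where its Benjamini-Hochberg adjusted p, taken over all 5244 probe sets bright enough to test, was under 0.05. Every adjusted p below comes from that limma fit, is two-sided and covers the whole table. Of the members, 87 probe sets of 53 genes were bright enough. Signals of different probe sets depend on their probes, so levels are compared between arrays and not between genes.

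TEN-220 replicate 1 had been deposited at a lower scale than the other 12 arrays and was multiplied by 3.76 before normalization. The TEN-160 arrays stood apart in a spike-in control: the ratio of the 5′ to the 3′ BioD probe set was 0.422 to 0.497 there and 0.132 to 0.210 on the other 10 arrays. The GAPDH 3′ to 5′ ratio, a sign of RNA integrity, was 1.03 to 1.24 in TEN-160, 1.04 to 1.47 in EtOH-220, 1.50 to 1.73 in EtOH-160 and 1.52 to 2.32 in TEN-220. The same ratio for actin overlapped among all groups. It was 1.91 to 2.96 in TEN-160, 1.93 to 2.18 in EtOH-220, 1.77 to 2.31 in EtOH-160 and 1.97 to 3.00 in TEN-220. The BioD ratio moves with the TEN-160 group, on which both comparisons with many calls rest, while the GAPDH ratio of TEN-160 lay below those of TEN-220 and EtOH-160 and overlapped that of EtOH-220. The labels give no array run or batch. In the comparisons with TEN-160, a technical difference that goes with the BioD ratio cannot be told apart from an effect of the diet. All 11 hepatocyte markers on the array were above background (a signal of 46.6) in every group. Their summed signal was 231343 to 237258 in TEN-160 and 252688 or more on every other array. By group means, Ttr, Fgb and Cps1 were higher in TEN-160 than in TEN-220, and the other hepatocyte markers lower. In bulk tissue, fewer cells of a type and less RNA per cell cannot be told apart. Of the stellate cell and fibroblast markers, 6 of 9 were above background in TEN-160 and 7 of 9 in the other groups, and their summed signals were 2450.4 to 5060 in TEN-160 and 1496 to 2526 over the other 10 arrays. Group means of Col1a1, Col1a2, Col3a1, Dcn, Lum and Vim were higher in TEN-160 than in TEN-220, and those of Acta2, Tagln and Des lower. The Kupffer cell and macrophage markers summed to 10656 to 12212 in TEN-160 against 6866 to 8846 in EtOH-160, with the 220 kcal arrays between 7288 and 12046, and 9 or 10 of 10 were above background. Against that sum, group means of Cd14 and C1qc were higher in EtOH-160 than in TEN-160, and those of the other macrophage markers lower. The part of these markers in the results below was not tested.

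Cox8a, Cox6c, Cox5a and Cox4i1 of complex IV were lower in TEN-160 than in TEN-220, and the same 4 genes were higher in EtOH-160 than in TEN-160, each on at least 1 probe set. Between TEN-160 and TEN-220, 15 of 87 member probe sets were called, 3 higher and 12 lower. That is 17.2%, against 17.8% of all 5244 probe sets tested. Between EtOH-160 and TEN-160, 19 of 87 were called, 13 higher and 6 lower, or 21.8% against 22.3% of all. The share of members called was thus close to that of the array as a whole in both comparisons. Both comparisons share the TEN-160 arrays, so their opposite signs are not independent.

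By complex, 7 of 22 complex IV probe sets were lower in TEN-160 than in TEN-220 and 0 were higher, where 9.94% of all probe sets were lower and 7.86% higher. In EtOH-160 against TEN-160, 8 of the 22 were higher and 0 lower, where 11.9% of all were higher and 10.4% lower. Complex I gave 1 higher and 3 lower of 41 in the first comparison and 2 higher and 2 lower in the second. Complex III gave 2 higher and 1 lower of 7, then 1 higher and 2 lower. Complex V gave 0 higher and 1 lower of 16, then 2 higher and 2 lower, and Sdha, the single complex II member, was called in neither. The 8 called complex IV probe sets belong to only 4 genes, and probe sets of one gene are not replicates. Counting each gene once by its brightest probe set, 6 of 53 genes were called in the first comparison (2 higher, 4 lower) and 9 in the second (5 higher, 4 lower). Among them in each comparison were 2 of the 11 tested complex IV genes, Cox5a and Cox6c. Of all probe sets tested, 17.8% and 22.3% were called in these comparisons. The share over all genes counted by their brightest probe set was not computed.

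The median difference of the members was -0.09 between TEN-160 and TEN-220, against -0.03 over all probe sets tested, and 0.12 between EtOH-160 and TEN-160, against 0.02. Complex IV had medians of -0.34 and 0.44 in these comparisons, complex III of -0.25 and 0.22, complex I of -0.03 and 0.02, and complex V of -0.10 and 0.10. Groups did not overlap for 31 of 87 members in the first comparison, where 36.5% of all probe sets did not overlap, and for 28 of 87 in the second, where the share of all was 31.1%. An unadjusted p under 0.05 was reached by 32 members in the first (31.5% of all probe sets reached it) and by 34 in the second (35.5% of all). Leaving out TEN-220 replicate 1, the rescaled array, left 9 member calls in the first comparison (3 higher, 6 lower, 10.4% of all probe sets called), with 4 of complex IV among those lower. Leaving out TEN-160 replicate 1 or EtOH-160 replicate 4 left 12 calls in the second comparison (10 higher and 2 lower, and 9 higher and 3 lower), with 6 of complex IV higher either way, and the share of all probe sets called was 16.8% and 17.4% in these fits. The split between higher and lower depended on the scaling. With each array centred on its median, which moves the median of all probe sets to -0.16 and 0.13, the calls were 1 higher and 20 lower in TEN-160 against TEN-220 and 19 higher and 2 lower in EtOH-160 against TEN-160, and with scaling to a common trimmed mean they were 4 higher and 13 lower, and 15 higher and 4 lower. Of all probe sets, 20.9% and 22.9% were called in these comparisons with median centring, and 18.3% and 22.2% with the trimmed mean. Complex IV had 8 and 7 lower in the first comparison and 9 and 7 higher in the second under these scalings, and 0 the other way. With array weights it had 2 higher and 8 lower, then 9 higher and 1 lower, and with only the 2 groups compared in the fit 1 higher and 6 lower, then 8 higher and 1 lower.

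Complex IV is built around mitochondrially encoded catalytic subunits, and the nuclear-encoded subunits measured here surround that core. Cox8a, the liver form of the small subunit VIII, was measured by 4 probe sets. Probe set rc_AI102505_g_at read 9085, 9412 and 6867 in TEN-220, 11497, 9366 and 6381 in EtOH-220, 3256, 4262 and 1340.4 in TEN-160, and 9048, 8453, 6630.2 and 8193 in EtOH-160. All 3 TEN-160 arrays lay below every other array, and replicate 3 was the lowest of them. Its signal fell 3.16-fold in TEN-160 against TEN-220, a log2 difference of -1.66 (SE 0.34, adjusted p = 0.00482), and rose 3.03-fold in EtOH-160 against TEN-160, a difference of 1.60 (SE 0.31, adjusted p = 0.00319). Another set, L48209_s_at, read 6988, 6903 and 5164 in TEN-220, 4388, 6418 and 4321 in EtOH-220, 2486, 3276 and 2216 in TEN-160, and 6669.9, 6109, 5031 and 5932 in EtOH-160. TEN-160 was again wholly below the other groups, with log2 differences of -1.26 (SE 0.20, adjusted p = 0.000943) and 1.17 (SE 0.18, adjusted p = 0.000888) in the same 2 comparisons. Set rc_AI102505_at gave -1.29 and 1.10, also called in both, the second not without TEN-160 replicate 3 (adjusted p = 0.0555). The fourth, M28255_s_at, read 8405, 8310.3 and 6726 in TEN-220, 9769, 9141 and 6418 in EtOH-220, 5865, 7964 and 5987 in TEN-160, and 8270.0, 7097, 7729.6 and 8573 in EtOH-160. There the groups overlapped, and the differences of -0.25 (adjusted p = 0.354) and 0.27 (adjusted p = 0.256) were not called.

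Cox6c, another small nuclear-encoded subunit, was the only member gene with several probe sets that were all called one way in a comparison. Probe set M27466_at read 493, 527 and 507 in TEN-220, 745, 505 and 290.1 in EtOH-220, 303, 172 and 24.5 in TEN-160, and 592, 577, 563 and 426 in EtOH-160. The TEN-160 arrays were spread from 24.5 to 303, and replicate 1 lay within the range of EtOH-220. The log2 difference was -2.23 (SE 0.65, adjusted p = 0.0304) between TEN-160 and TEN-220 and 2.30 (SE 0.61, adjusted p = 0.0161) between EtOH-160 and TEN-160, and without TEN-160 replicate 3 these sizes dropped to -1.17 and 1.24. The first was no longer called when any of the 3 TEN-220 arrays was left out (adjusted p = 0.068 to 0.0803). The other probe set, M27467_at, read 332, 304 and 216 in TEN-220, 612, 391 and 883 in EtOH-220, 87.6, 67.0 and 165 in TEN-160, and 283, 221, 145 and 264 in EtOH-160. TEN-160 was below TEN-220 on every array there, by 1.50 log2 units (SE 0.37, adjusted p = 0.0131), while its replicate 3 (165) lay above EtOH-160 replicate 3 (145). EtOH-220 held the 3 highest values of that probe set, a pattern that the first probe set did not show. M27467_at was no longer called in TEN-160 against TEN-220 without TEN-220 replicate 1 (adjusted p = 0.0553), nor in EtOH-160 against TEN-160 without replicate 1 or 2 of TEN-160 or replicate 1 or 4 of EtOH-160 (adjusted p = 0.0649 to 0.107).

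Cox5a, a subunit on the matrix side of the enzyme, had 1 tested probe set of its own. It read 251, 259 and 154 in TEN-220, 248, 265 and 299 in EtOH-220, 65.6, 83.3 and 66.1 in TEN-160, and 244, 262, 209 and 213 in EtOH-160. The TEN-160 signals were below those of every other array and the other 3 groups overlapped. Cox5a fell 3.02-fold between TEN-220 and TEN-160, by 1.60 log2 units (SE 0.22, adjusted p = 0.000481), and was 3.24-fold higher in EtOH-160 than in TEN-160 (log2 difference 1.70 (SE 0.21, adjusted p = 0.000267)). A brighter probe set that the annotation gives to both Cox5a and another locus, and that the rule therefore left out, changed less: -0.39 (adjusted p = 0.0923, not called) and 0.50 (adjusted p = 0.0231).

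Cox4i1, the ubiquitous form of the subunit through which ATP inhibits the oxidase, was called on 2 of its 3 tested probe sets. Probe set J05425cds_s_at read 9911, 10961 and 9141 in TEN-220, 10631, 8895 and 8229 in EtOH-220, 6797, 7749.6 and 4819.7 in TEN-160, and 10631, 11018, 10631 and 9085 in EtOH-160. TEN-160 lay wholly below the other groups, with a difference of -0.66 (SE 0.17, adjusted p = 0.0169) from TEN-220 and 0.70 (SE 0.16, adjusted p = 0.00706) between EtOH-160 and TEN-160. The first was lost when replicate 1 or 2 of TEN-220 was left out, or TEN-160 replicate 3 (adjusted p = 0.0516 to 0.0725). With the values as deposited, that log2 difference was 0.0084, of the opposite sign and not called (adjusted p = 0.992). Another probe set, X54081mRNA_i_at, read 3035, 2836 and 2836 in TEN-220, 4115, 2859 and 2749.7 in EtOH-220, 1998, 2610.1 and 2047 in TEN-160, and 3271, 3378, 2854 and 3253 in EtOH-160. It was called higher in EtOH-160 than in TEN-160 (0.53 (SE 0.16, adjusted p = 0.028); lost in 5 of 13 fits that left out 1 array, TEN-160 replicates 1 and 3 and EtOH-160 replicates 1, 2 and 4) and was not called in TEN-160 against TEN-220 (-0.40, adjusted p = 0.122). The brightest, rc_AA818226_s_at, read 11893, 13042 and 12052 in TEN-220, 14595, 12086 and 10402 in EtOH-220, 9244, 12149.7 and 8617 in TEN-160, and 12574, 13832, 11816 and 12574 in EtOH-160. It differed by -0.32 (adjusted p = 0.166) and 0.36 (adjusted p = 0.0832) and was called in neither comparison.

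The other complex IV genes gave no call in either comparison. Cox6a1, the liver form of subunit VIa, had 3 probe sets that were all lower in TEN-160 (differences of -0.80 to -0.23) and all higher in EtOH-160 than in TEN-160 (0.43 to 1.10), with the smallest adjusted p at 0.0503. Cox5b (0.23 and 0.71 in TEN-160 against TEN-220) and Cox7a2l (0.25 and 0.42) had the opposite sign on both of their probe sets and were not called either. The striated muscle forms were dim or showed no call, and of 10 striated muscle markers on the array 5 to 8 had a group mean above background. Both probe sets of Cox8b and 2 of 3 for Cox6a2 failed the brightness filter, with mean signals of 9.76 to 52.4. The tested Cox6a2 probe set read 448, 409 and 409.9 in TEN-220, 341, 414 and 444 in EtOH-220, 463, 610.3 and 497 in TEN-160, and 481, 381, 407 and 458 in EtOH-160, with no call.

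Complex III moved in both directions within its 7 probe sets. Uqcrc2, a core protein of the complex outside the redox centres, was higher in TEN-160, with signals of 598, 715 and 461 in TEN-220, 1531, 771 and 844 in EtOH-220, 1322, 1646 and 1243 in TEN-160, and 839, 959, 909 and 751 in EtOH-160. All TEN-160 arrays were above all TEN-220 arrays, and EtOH-220 replicate 1 (1531) lay within the TEN-160 range. The gene rose 2.39-fold between TEN-220 and TEN-160 (log2 difference 1.26 (SE 0.25, adjusted p = 0.00396)) and was lower in EtOH-160 than in TEN-160, by 0.70 log2 units (SE 0.23, adjusted p = 0.0445). The second call was lost in 8 of 13 fits that left out 1 array, every TEN-160 and EtOH-160 array and TEN-220 replicate 1 (adjusted p = 0.0571 to 0.141). Uqcr11, a small subunit, went the other way. Its probe set rc_AA892462_at read 3515, 3092 and 2610.1 in TEN-220, 3716, 3309 and 2778 in EtOH-220, 1884, 1781 and 2100.5 in TEN-160, and 3302, 3523, 3219.7 and 3219.7 in EtOH-160. TEN-160 was below every other array, with differences of -0.67 (SE 0.15, adjusted p = 0.00857) from TEN-220 and 0.79 (SE 0.14, adjusted p = 0.00181) between EtOH-160 and TEN-160. The other Uqcr11 probe set had the same signs (-0.51 and 0.44) and was not called.

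Uqcrfs1 encodes the Rieske iron-sulfur protein, the subunit that hands electrons towards cytochrome c. Its 3 probe sets disagreed. Probe set rc_AI103911_at read 745, 774 and 560.0 in TEN-220, 849.9, 499 and 676 in EtOH-220, 1201, 1095 and 1327 in TEN-160, and 742, 700.4, 672 and 541 in EtOH-160. TEN-160 was above every other array, higher than TEN-220 by 0.81 (SE 0.21, adjusted p = 0.0172) and, on the same probe set, EtOH-160 was lower than TEN-160 by 0.87 log2 units (SE 0.20, adjusted p = 0.00736). The first of these calls was lost without TEN-220 replicate 3 or TEN-160 replicate 3 (adjusted p = 0.0695 and 0.0537). The brightest, M24542cds_g_at, read 4562, 4798 and 3947 in TEN-220, 3166, 4470.2 and 4339 in EtOH-220, 3497, 3916 and 3724 in TEN-160, and 4771, 4240.4, 4005 and 4339 in EtOH-160. There TEN-160 overlapped EtOH-220, and the differences were -0.25 (adjusted p = 0.27) and 0.22 (adjusted p = 0.277). The third, M24542cds_at, read 2213, 1992 and 1360.1 in TEN-220, 1779, 1594 and 1891 in EtOH-220, 1394, 1322 and 957 in TEN-160, and 2032, 1494, 1776 and 1528 in EtOH-160, and its differences of -0.59 and 0.49 were not called either. No direction for the Uqcrfs1 transcript can be read from these 3 probe sets together.

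Complex I had the most members and few calls. Ndufb11, an accessory subunit of the membrane arm, read 1254, 1164 and 1003 in TEN-220, 912, 1040.4 and 815 in EtOH-220, 3018, 1927 and 2284 in TEN-160, and 1149.9, 656, 1122 and 1089.7 in EtOH-160. The 3 TEN-160 arrays were above all others. Ndufb11 rose 2.09-fold between TEN-220 and TEN-160 (log2 difference 1.06 (SE 0.23, adjusted p = 0.00696)) and was lower in EtOH-160 than in TEN-160 by 1.27 log2 units (SE 0.21, adjusted p = 0.00127). Ndufa6, an accessory subunit of the LYR-motif family, read 359, 559 and 459 in TEN-220, 651, 533 and 709 in EtOH-220, 257, 316 and 143 in TEN-160, and 625, 444, 473 and 385 in EtOH-160 on probe set rc_AI229924_at. TEN-160 was below the other groups. Ndufa6 fell 1.99-fold from TEN-220 (adjusted p = 0.0259) and was higher in EtOH-160 than in TEN-160 by 1.07 (SE 0.26, adjusted p = 0.0114), and the first was not called without TEN-220 replicate 2, TEN-220 replicate 3 or TEN-160 replicate 3 (adjusted p = 0.0636 to 0.104). The other Ndufa6 probe set, rc_AA819547_at, read 2025, 2383 and 1706 in TEN-220, 2349, 1930.1 and 1776 in EtOH-220, 3291, 3441 and 1196 in TEN-160, and 2370.0, 2595, 1615 and 2047 in EtOH-160. It had TEN-160 replicates 1 and 2 as the highest of the 13 arrays and replicate 3 as the lowest, and was not called with all arrays in the fit. Without replicate 3 it was called with the opposite signs of the first set, at 0.73 (adjusted p = 0.0386) in TEN-160 against TEN-220 and -0.66 (adjusted p = 0.0443) in EtOH-160 against TEN-160.

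Ndufb8, another membrane-arm subunit, had 4 tested probe sets, and 1 was called lower in TEN-160. That set, rc_AA999168_at, read 199, 154 and 109 in TEN-220, 227, 101 and 238 in EtOH-220, 38.2, 41.0 and 50.0 in TEN-160, and 41.0, 144, 165 and 35.2 in EtOH-160. The TEN-160 mean was below background, so the fall from TEN-220 is given as at least 3.20-fold (fitted log2 difference -1.80 (SE 0.56, adjusted p = 0.0391)), and the call was lost when any single TEN-220 or TEN-160 array was left out (adjusted p up to 0.135). The brighter Ndufb8 sets rc_AA851403_g_at and rc_AA964320_at differed by 0.21 and 0.08 and were not called. The remaining set, rc_AA851403_at, was also lower in TEN-160 (group mean 305, against 353 in TEN-220) and was not called. Ndufv3, a small subunit of the NADH-binding module, read 3240.4, 3296 and 2572 in TEN-220, 2337, 2658 and 2527 in EtOH-220, 2041, 1890.3 and 2197 in TEN-160, and 2320.3, 2865, 2088 and 2059 in EtOH-160. All TEN-160 arrays were below all TEN-220 arrays, by 0.57 log2 units (SE 0.16, adjusted p = 0.0259), a call lost when replicate 1 or 2 of TEN-220 was left out, or TEN-160 replicate 1 or 2 (adjusted p = 0.0607 to 0.0991). Ndufv2, an iron-sulfur subunit of the same module, was higher in EtOH-160 than in TEN-160 by 0.74 (SE 0.25, adjusted p = 0.0465), with the groups meeting at 2426; the call was lost in 8 of 13 fits that left out 1 array, those without any TEN-220 array, TEN-160 replicate 1 or 3, or EtOH-160 replicate 1, 2 or 4 (adjusted p = 0.0564 to 0.158). Ndufs8, an iron-sulfur subunit near the ubiquinone site, was lower there by 0.47 log2 units (SE 0.16, adjusted p = 0.0473) on 1 of its 3 tested probe sets, and that call held in only 2 of the 13 such fits, those without EtOH-220 replicate 1 or TEN-160 replicate 3 (adjusted p up to 0.191).

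The brightest member probe set of each complex was called in none of the 6 comparisons. In complex I this was Ndufa4, which read 4624, 5662 and 4552 in TEN-220, 3085, 4582 and 3345 in EtOH-220, 4597, 4369 and 3545 in TEN-160, and 5078, 5078, 4624 and 4321 in EtOH-160. Sdha, the flavoprotein that oxidises succinate, read 2201, 1969.8 and 1973 in TEN-220, 1631, 2002 and 1912 in EtOH-220, 2521, 1290.3 and 2343 in TEN-160, and 1995, 1250.2, 2439.7 and 2080.0 in EtOH-160. Its difference was -0.06 in TEN-160 against TEN-220 (95% interval -0.62 to 0.51) and -0.06 in EtOH-160 against TEN-160 (-0.59 to 0.46). Atp5f1b, the catalytic beta subunit of the ATP synthase, read 10454, 12519.7 and 10307 in TEN-220, 9298, 10307 and 11699 in EtOH-220, 10811, 9871 and 11368 in TEN-160, and 11554, 10631, 12086 and 11086 in EtOH-160. Its 95% intervals were the narrower, -0.32 to 0.22 and -0.16 to 0.34 in the same 2 comparisons, and its groups overlapped.

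Calls in complex V were spread over 4 genes. Atp5f1e, the epsilon subunit of the central stalk, was lower in TEN-160 than in TEN-220 by 0.50 log2 units (SE 0.14, adjusted p = 0.0265) and higher in EtOH-160 than in TEN-160 by 0.49 (SE 0.13, adjusted p = 0.019) on probe set rc_AI171844_at. The first was lost when replicate 1 or 2 of TEN-220 was left out, or TEN-160 replicate 2 (adjusted p = 0.0556 to 0.110) and the second without TEN-160 replicate 2 (adjusted p = 0.0680). The brighter Atp5f1e set, rc_AI171844_g_at, differed by -0.17 and 0.12 and was not called. Atp5f1a, the alpha subunit, was lower in EtOH-160 than in TEN-160 by 0.45 log2 units (SE 0.13, adjusted p = 0.0237), and not called without TEN-160 replicate 1 or 3 or EtOH-160 replicate 4 (adjusted p = 0.0505 to 0.0986). Atp5pf, a subunit of the peripheral stalk, had a set that read 1605, 1564 and 1436 in TEN-220, 1274, 1517 and 1191 in EtOH-220, 1308, 1312 and 417 in TEN-160, and 1804, 1724, 1672 and 1734 in EtOH-160. It was called higher in EtOH-160 than in TEN-160 (0.95 (SE 0.31, adjusted p = 0.0379)), and TEN-160 replicate 3 stood far below the other 2. Without that array the difference was 0.40 and was not called (adjusted p = 0.0704), and the call was lost in 6 of the 13 fits that left out 1 array (adjusted p = 0.0503 to 0.0758). The second Atp5pf set, X54510_g_at, read 1106, 911 and 952 in TEN-220, 996, 913 and 699.6 in EtOH-220, 2078, 1837 and 617 in TEN-160, and 1081, 1075, 1132 and 1064 in EtOH-160. It had 2 TEN-160 arrays as the highest of all and replicate 3 as the lowest, with a difference of -0.29 (adjusted p = 0.554) that became -0.85 and called (adjusted p = 0.00579) without replicate 3.

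Atp5if1 encodes the peptide that blocks ATP hydrolysis by the synthase when the proton gradient collapses. Its set M35300_f_at read 300.2, 120.2 and 255 in TEN-220, 127, 224 and 163 in EtOH-220, 504, 209.8 and 279 in TEN-160, and 187, 91.4, 126 and 149 in EtOH-160. EtOH-160 was wholly below TEN-160, by 1.21 log2 units (SE 0.37, adjusted p = 0.0309), a call lost without TEN-160 replicate 1, TEN-160 replicate 3, EtOH-160 replicate 2 or EtOH-160 replicate 3 (adjusted p = 0.0582 to 0.140). The other 2 tested sets differed by 0.59 and 0.61, the opposite sign, and were not called. Probe sets of the ATP synthase subunit c genes Atp5mc1 and Atp5mc2, left out by the rule because the annotation names a paralogue with each, were called lower in TEN-160 than in TEN-220 (-0.96 and -0.90, adjusted p = 0.0134 and 0.00396) and higher in EtOH-160 than in TEN-160 (0.92 and 0.90, adjusted p = 0.0101 and 0.00217). Their probes may also read the paralogues.

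Probe sets of one gene often did not move together. Of 24 member genes with several tested probe sets, 13 had both signs among them in TEN-160 against TEN-220 (54.2%, against 44.6% of 882 such genes on the array) and 11 in EtOH-160 against TEN-160 (45.8% against 43.2%). The span between the probe sets of a gene had a median of 0.65 on the log2 scale in the first comparison, and was widest for Ndufb8 at 2.01. Cox8a, Cox6c, Cox4i1, Uqcr11 and Atp5f1e kept 1 sign over all of their tested probe sets in both comparisons. Uqcrfs1, Ndufa6, Atp5pf and Atp5if1 did not.

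Ethanol at 220 kcal gave no member call with limma, and neither did restricted energy under ethanol or the 2 combined. Between EtOH-220 and TEN-220, 0 of 87 members were called, against 0.0191% of all probe sets, and 8 had an unadjusted p under 0.05 (9.97% of all probe sets did). The 7 members whose groups did not overlap compare with 17.8% of all probe sets. Ndufs1, the largest iron-sulfur subunit of complex I, had the smallest p, with signals of 77.5, 99.8 and 68.7 in TEN-220, 206, 193 and 139.8 in EtOH-220, 145, 169 and 74.7 in TEN-160, and 152, 136, 111 and 104 in EtOH-160. EtOH-220 lay above TEN-220 on all 3 arrays, by 1.13 (SE 0.31, adjusted p = 0.256), which was not called. Uqcrc2 (0.78 (SE 0.25, adjusted p = 0.326)) and the Cox6c set M27467_at (1.09 (SE 0.37, adjusted p = 0.382)) followed, also above TEN-220 on every array. The median half-width of the 95% interval was 0.48 over the members, so smaller differences were not resolved in most of them. That interval is not adjusted for the number of probe sets tested, and larger differences, such as that of Ndufs1, also went uncalled.

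Between EtOH-160 and EtOH-220, 0 of 87 members were called against 0.286% of all, and 6 had an unadjusted p under 0.05 against 11.1% of all. Groups did not overlap for 5 members, where the share of all was 10.2%. The smallest p belonged to Cox6c M27467_at, lower in EtOH-160 on every array by 1.43 log2 units (SE 0.34, adjusted p = 0.0982), which was not called. Atp5f1e rc_AI171844_g_at read 5295, 5831 and 4921 in TEN-220, 3497, 4819.7 and 4057 in EtOH-220, 5078, 4504 and 4683 in TEN-160, and 5043, 5729, 4883 and 4987 in EtOH-160, a difference of 0.33 (SE 0.13, adjusted p = 0.362). Ndufa4 was next at 0.40 (SE 0.16, adjusted p = 0.369).

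Between EtOH-160 and TEN-220, which differ in both ethanol and energy, 0 of 87 members were called against 2.23% of all, and 4 had an unadjusted p under 0.05 against 13.7%. Groups did not overlap for 9 members, where the share of all was 16.8%. Ndufv3 had the smallest p, at -0.38 (SE 0.15, adjusted p = 0.256), followed by Uqcrc2 at 0.56 (SE 0.23, adjusted p = 0.293). Ndufs8 rc_AA851379_at, with signals of 382, 423 and 365 in TEN-220, 233, 92.9 and 262 in EtOH-220, 263, 294 and 158 in TEN-160, and 111, 317, 227 and 251 in EtOH-160, followed at -0.88 (SE 0.39, adjusted p = 0.335). The 4 genes of complex IV that were called in the other comparisons differed here by -0.34 to 0.13 over their 10 probe sets, and none was called. For Cox8a L48209_s_at the 95% interval of this difference was -0.49 to 0.30, and for Cox5a it was -0.35 to 0.55.

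The effect of ethanol was tested for a difference between the 2 energy intakes. Of 87 members, 4 were called (3 higher, 1 lower), or 4.6% against 7.13% of all probe sets (4.04% higher, 3.09% lower), and 22 had an unadjusted p under 0.05 against 24.4% of all. Cox8a L48209_s_at had an ethanol effect of -0.34 at 220 kcal and of 1.17 at 160 kcal, a difference of 1.52 (SE 0.27, adjusted p = 0.00695). Cox5a went from 0.33 to 1.70, a difference of 1.37 (SE 0.30, adjusted p = 0.0183). Cox4i1 J05425cds_s_at went from -0.12 to 0.70, a difference of 0.82 (SE 0.23, adjusted p = 0.0474). Uqcrc2 went the other way, from 0.78 to -0.70, a difference of -1.47 (SE 0.34, adjusted p = 0.0217). Without TEN-220 replicate 1 the Cox8a call alone was left among these 4, and without TEN-220 replicate 2 those of Cox8a and Uqcrc2 were. The Cox4i1 call was lost in 10 of the 13 fits that left out 1 array (all but those without EtOH-220 replicate 1, TEN-160 replicate 2 or EtOH-160 replicate 4, adjusted p up to 0.113) and under 5 of 10 other settings, and the Cox8a call in 0 of the 13 and 1 of the 10. Only 1 of 4 Cox8a probe sets was called in this test (differences of 0.18 to 1.52, all positive). For Cox4i1 it was 1 of 3 (0.37 to 0.82, all positive). The brighter probe set that Cox5a shares with another locus gave 0.31 and was not called (adjusted p = 0.385). Neither Cox6c probe set was called in this test (2.39, adjusted p = 0.115, and 0.07, adjusted p = 0.956).

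Seen by array, the median of the complex IV probe sets relative to the TEN-220 mean was -0.33, -0.02 and -0.51 in the 3 TEN-160 arrays, so the second of them was near the other groups. The medians of the other groups ran from -0.21 to 0.29. Complex I was at 0.09, 0.24 and -0.46 in TEN-160, and replicate 3 was the lowest of the 13 arrays for both complexes. Complex III was at -0.34, -0.17 and -0.25 in TEN-160, against -0.22 to 0.17 elsewhere. Complex V stayed between -0.20 and 0.13 on all 13 arrays. The median of all probe sets tested stayed between -0.05 and 0.02, where the quantile normalization holds it by construction. For all members together the TEN-160 arrays were at -0.03, 0.00 and -0.29, and the other groups ran from -0.14 to 0.13. Without TEN-160 replicate 3, 17 members were called in TEN-160 against TEN-220 (8 higher, 9 lower, with 14.3% of all probe sets called) and 15 in EtOH-160 against TEN-160 (9 higher, 6 lower, with 16.7% of all), with 6 of complex IV lower and 1 higher in the first and 6 higher in the second.

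TEN-160 lay wholly above the other 10 arrays for 5 of 87 members and wholly below for 7, together 13.8% against 15% of all probe sets tested (7.72% above, 7.28% below). In complex IV it was below for 5 of 22 and above for 0. The other 3 groups stood apart in this way for 1.15% to 2.3% of members, against 1.16% to 2.86% of all probe sets. The members' median SD within groups was 0.28 on the log2 scale, against 0.31 for all probe sets tested.

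Lists of genes that feed or serve the chain held few tested genes, and their counts are read against 22.3% of all probe sets called in EtOH-160 against TEN-160 (11.9% higher, 10.4% lower) and 17.8% in TEN-160 against TEN-220 (7.86% higher, 9.94% lower). Each listed gene was taken by its brightest tested probe set, and its other probe sets were not read. The shares and medians of all probe sets are not limited in that way. Of 11 tested genes of the citric acid cycle and pyruvate dehydrogenase, 3 were higher and 2 lower in EtOH-160 than in TEN-160. The higher ones were Idh2, mitochondrial isocitrate dehydrogenase (0.92, adjusted p = 0.00502), Pdha1, of pyruvate dehydrogenase (0.70, adjusted p = 0.00487), and Suclg1, of succinate-CoA ligase (0.66, adjusted p = 0.00555). The lower ones were Pc, pyruvate carboxylase (-0.50, adjusted p = 0.0124), and Mdh2, malate dehydrogenase (-0.36, adjusted p = 0.0325). In TEN-160 against TEN-220, Pc was higher (0.51, adjusted p = 0.0185), and Cs, citrate synthase (-1.19, adjusted p = 0.0255), and Suclg1 (-0.69, adjusted p = 0.00741) were lower. The list's median was 0.38 in the first comparison and -0.29 in the second, against 0.02 and -0.03 for all probe sets tested.

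Among 10 tested carriers, 2 were called in TEN-160 against TEN-220 and 1 in EtOH-160 against TEN-160. Slc25a10, the dicarboxylate carrier, was lower in TEN-160 than in TEN-220 (-0.75, adjusted p = 0.00674) and higher in EtOH-160 than in TEN-160 (0.53, adjusted p = 0.0225), and Slc25a3, which imports the phosphate used by complex V, was lower in TEN-160 (-0.58, adjusted p = 0.0354). Of 6 tested electron carriers and feeder enzymes, Sod2, the superoxide dismutase of the matrix, was higher in TEN-160 than in TEN-220 (0.81, adjusted p = 0.0106), and 0 were called in EtOH-160 against TEN-160 with limma. Of 4 tested regulators of mitochondrial biogenesis, Prkaa2, a catalytic subunit of the energy sensor AMPK, was higher in TEN-160 than in TEN-220 (2.02, adjusted p = 0.0113) and lower in EtOH-160 than in TEN-160 (-1.65, adjusted p = 0.0190). Neither of 2 tested assembly factors was called in any comparison. In the comparisons EtOH-220 against TEN-220, EtOH-160 against EtOH-220 and EtOH-160 against TEN-220, none of these lists had a call. In the test of a different ethanol effect at the 2 intakes, Pdha1 (0.84, adjusted p = 0.0330) and Suclg1 (0.80, adjusted p = 0.0341) were higher and Sod2 (-1.01, adjusted p = 0.0330) lower.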

How the data were processed

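Total RNA from 13 rat liver samples was hybridised to 1-colour Affymetrix arrays. The authors deposited a signal intensity per probe set from MAS5, per the submitters' processing notes; its version and settings are not given in the sources used here. Of 8799 probe sets, 59 are controls. The deposited intensities of 12 arrays share 1 trimmed mean (2% off each end), and TEN-220 replicate 1, at 133 against 501, was rescaled. The 8740 non-control probe sets were quantile normalized, raised to a floor at the 10th percentile (9.76) and put on the log2 scale, and the 40% with the lowest mean were left out. limma 3.58.1 (R 4.3.3) fitted 4 group means with a variance trend, and p-values were adjusted within each comparison. Background is the 95th percentile of 19 non-rat control probe sets. Array counts limit the precision, and depth does not apply.

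The fit was tested on simulated data. Group means of signal are geometric. Gene names are those of the array's annotation, and all 55 members matched the RefSeq gene table. The 6 probe sets annotated to a member and a paralogue or pseudogene were left out. Genes with every array's value were, per comparison, the 3 higher and 3 lower called probe sets with the largest change (or the 3 smallest p where fewer than 2 were called), the brightest of each complex, and genes whose probe sets disagreed; of other lists, up to 4 called genes. Cox4i1 X54081mRNA_i_at, Cox6a2, Cox8a M28255_s_at and Uqcr11 were added after their values were seen. Members and lists were chosen with earlier results of these data known. Replicate numbers did not pair the arrays (same-number correlations of -0.11 to 0.09 over 18 pairs). Alternatives covered scaling, floor, brightness filter, variance model, array weights, replicate block, groups in the fit, probe set choice and each array left out.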

Additional observations from a re-analysis of the deposited data

Results flagged for a closer look

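In EtOH-160, the only group with 4 arrays, 5 of 87 member probe sets had 1 array far from the other 3, by the gap to its nearest neighbour over the range of the group, which was above Dixon's 95% critical value. Chance flags about 1 in 20 groups, and 5 of 87 is close to that; groups of 3 were not tested. Ndufv2 M22756_at had replicate 3 apart (gap over range 0.938), Ndufb11 rc_AA893690_g_at replicate 2 (0.904), Ndufaf3 U95162_at replicate 4 (0.872), Cox6a1 rc_AI104520_s_at replicate 2 (0.870) and Cox6c M27466_at replicate 4 (0.847).

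The effect of ethanol differed between 160 and 220 kcal, by limma's test of the difference, for Cox8a L48209_s_at (1.52 on the log2 scale), Cox5a rc_AI104513_at (1.37), Cox4i1 J05425cds_s_at (0.82) and Uqcrc2 rc_AI235358_at (-1.47). The call of Cox4i1 was lost in 10 of 13 fits that left out 1 array, that of Cox5a in 2, that of Uqcrc2 in 1 and that of Cox8a in 0. These calls rest on 1 of 4 tested probe sets for Cox8a and 1 of 3 for Cox4i1. The brighter probe set that Cox5a shares with another locus was not called (0.31, adjusted p = 0.385). The TEN-160 arrays, which differ from the others in the BioD spike-in ratio, enter each of these differences.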

How the results depend on the processing

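EtOH-220 against TEN-220, EtOH-160 against EtOH-220 and EtOH-160 against TEN-220 had 0 member calls under every setting, each array left out included (range 0 to 0). With single arrays left out, the calls ranged from 12 to 23 for EtOH-160 against TEN-160, from 9 to 19 for TEN-160 against TEN-220 and from 1 to 6 for the difference of the ethanol effects; the lowest came without TEN-160 replicate 1 or EtOH-160 replicate 4 in the first, and without TEN-220 replicate 1 in the other two (2 calls for the difference when replicate 2 of that group was left out). The share of all probe sets called in these fits ran from 16.7% to 25.3%, from 10.4% to 20.1% and from 2.52% to 6.6%, in the same order. With the values as deposited, where TEN-220 replicate 1 is not rescaled, these 3 comparisons had 2, 3 and 0 calls (2.04%, 6.6% and 1.24% of all probe sets). The median change of the members was then 0.63 in EtOH-220 against TEN-220 and 0.50 in TEN-160 against TEN-220. It was 0.67 in EtOH-160 against TEN-220 and -0.43 for the difference of the ethanol effects. The median of all probe sets moved likewise (0.64, 0.70, 0.62 and -0.71). With median centring the members' medians were 0.32, -0.36 and 0.51 and the difference of effects had 9 calls (10.6% of all probe sets called). Trimmed-mean scaling gave it 7 (7.7% of all). Array weights gave 23 calls in TEN-160 against TEN-220 (23.5% of all probe sets called) and 8 for the difference of effects (10.1% of all). The brightest probe set of each gene gave 9, 6 and 2 calls of 53, since fewer probe sets enter, where 22.3%, 17.8% and 7.13% of all probe sets were called. Shared replicate numbers mark no known pairing. With the replicate block the calls were 14, 18 and 6, where 17%, 16.7% and 5.28% of all probe sets were called. For the other changes the cause was not tested. Of the member calls, 2 changed sign under any setting tried, both in TEN-160 against TEN-220 with the values as deposited and neither then called: Cox4i1 J05425cds_s_at (0.0084) and Atp5f1e rc_AI171844_at (0.051). At 3 or 4 arrays a group, the median 95% interval reached 0.48 to either side in EtOH-220 against TEN-220, so smaller changes are not resolved. Larger ones can go uncalled too, since that interval is not adjusted for the number of probe sets.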
